A study of Mus musculus with 8 samples.

Results

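Lineage-specifying basic helix-loop-helix (bHLH) transcription factors were examined in H3K27-me3 ChIP-seq of fasted mouse liver. The 45 genes were taken by name from GENCODE, out of 21938 protein-coding genes, and fall into neural (17), muscle (4), mesoderm (11), Hes/Hey (9) and Id (4) groups. A gene was called marked when a deposited region of H3K27-me3 lay within 1 kb of a start site, and the wider window of 15 kb and the gene body were read in the same way. In AAV-Cre 31 of the 45 genes were marked within 1 kb, compared to 23.9% of all protein-coding genes. In AAV-GFP 28 were, compared to 16.6%.

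The livers were from male JMJD3-floxed C57BL/6 mice. AAV-TBG-Cre (AAV-Cre) or AAV-GFP was injected when they were 8 weeks old, and tissue was taken 12 weeks later, after a fast of 16 h. Mice of both groups carried the floxed allele, and the TBG promoter directs Cre to hepatocytes, so that other liver cells of AAV-Cre mice were not the target. Each group had 2 H3K27-me3 and 2 input libraries from 2 mice, and the authors combined both replicates into 1 list of regions per group. The lists hold no value per mouse, so the groups are described side by side and not tested.

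The labels name primary liver cells, while the extract protocol describes minced liver tissue. Of 19 hepatocyte markers, 0 were marked within 1 kb in either list, against 8 of 10 stellate cell markers in each list, and 8 and 5 of 10 cholangiocyte markers in AAV-Cre and AAV-GFP. Endothelial markers were marked in 5 and 3 of 10 cases and Kupffer cell markers in 2 and 1 of 10. Of all protein-coding genes 23.9% were marked in AAV-Cre and 16.6% in AAV-GFP, and the Kupffer shares (20.0% and 10.0%) were not above these. The part of the non-hepatocyte cells in the members' values was not tested. In chromatin of whole tissue, a mark on fewer cells and a weaker mark per cell cannot be told apart. The AAV-Cre list held 59267 regions with a median width of 753 bp, and the AAV-GFP list 34586 with a median of 231 bp, and the number of reads behind either list is unknown. The lists do not measure the deletion itself. At Kdm6b, which encodes JMJD3, 2 AAV-Cre regions and 0 AAV-GFP regions lay within 15 kb, the nearest at 7386 bp. Of all protein-coding genes, 14.8% likewise had regions within 15 kb only in AAV-Cre.

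The bHLH proteins bind DNA as dimers, mostly of a tissue-restricted member with a broadly expressed E protein such as Tcf3. Proneural, myogenic and mesodermal members drive a cell into its lineage, Hes and Hey proteins are repressors that carry Notch signals, and Id proteins lack the DNA-binding part and trap E proteins in inactive dimers. H3K27-me3 is laid down by Polycomb complexes, often over CpG-rich starts of developmental regulators that a tissue does not use, and JMJD3 removes it.

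The 250 bases before the start are shown for 4 genes with regions within 1 kb in AAV-Cre and for 4 without one in either list. By the limits given below for the wider stretch around the start, all 4 marked genes shown were CpG-rich, so no CpG-poor marked start is shown. Among the unmarked genes shown, Atoh8 and Hes6 were CpG-rich and Myf5 and Ascl3 CpG-poor. Sequences were from RefSeq (GRCm38.p6), which had an entry for 33 of the 45 genes, and read 5′ to 3′ on the strand of the gene with each CpG in capitals. The 4 marked genes were Neurog2 (chr3:127632886-127633135, plus strand), Tal1 (chr4:115056176-115056425, plus), Hey2 (chr10:30842784-30843033, minus) and Id4 (chr13:48260866-48261115, plus). The 4 without a region within 1 kb were Atoh8 (chr6:72235578-72235827, minus), Hes6 (chr1:91414039-91414288, minus), Myf5 (chr10:107486135-107486384, minus) and Ascl3 (chr7:109731733-109731982, minus).
Neurog2: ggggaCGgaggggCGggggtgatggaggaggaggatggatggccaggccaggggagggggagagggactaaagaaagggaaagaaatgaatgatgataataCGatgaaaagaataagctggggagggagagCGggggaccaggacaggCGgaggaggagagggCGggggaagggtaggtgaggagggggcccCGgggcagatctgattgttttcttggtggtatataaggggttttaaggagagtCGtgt
Tal1: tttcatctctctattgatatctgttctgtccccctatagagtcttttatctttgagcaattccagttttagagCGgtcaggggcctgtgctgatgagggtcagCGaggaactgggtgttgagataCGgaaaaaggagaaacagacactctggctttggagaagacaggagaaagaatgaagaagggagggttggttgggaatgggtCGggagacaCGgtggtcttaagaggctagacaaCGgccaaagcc
Hey2: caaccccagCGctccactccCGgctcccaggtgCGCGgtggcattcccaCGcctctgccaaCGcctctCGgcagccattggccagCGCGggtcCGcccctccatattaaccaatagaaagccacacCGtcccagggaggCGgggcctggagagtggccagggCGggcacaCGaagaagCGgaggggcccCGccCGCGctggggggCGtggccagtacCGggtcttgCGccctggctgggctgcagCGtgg
Id4: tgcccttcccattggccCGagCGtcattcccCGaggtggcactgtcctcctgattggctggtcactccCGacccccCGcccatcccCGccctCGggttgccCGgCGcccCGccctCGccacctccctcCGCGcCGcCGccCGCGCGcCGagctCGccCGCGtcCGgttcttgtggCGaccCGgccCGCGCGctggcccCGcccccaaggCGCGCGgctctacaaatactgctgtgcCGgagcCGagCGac
Atoh8: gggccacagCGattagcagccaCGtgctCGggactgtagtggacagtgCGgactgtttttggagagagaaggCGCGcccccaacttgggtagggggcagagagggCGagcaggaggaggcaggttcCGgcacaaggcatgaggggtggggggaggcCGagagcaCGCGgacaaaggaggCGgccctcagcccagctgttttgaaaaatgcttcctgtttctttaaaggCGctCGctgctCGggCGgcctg
Hes6: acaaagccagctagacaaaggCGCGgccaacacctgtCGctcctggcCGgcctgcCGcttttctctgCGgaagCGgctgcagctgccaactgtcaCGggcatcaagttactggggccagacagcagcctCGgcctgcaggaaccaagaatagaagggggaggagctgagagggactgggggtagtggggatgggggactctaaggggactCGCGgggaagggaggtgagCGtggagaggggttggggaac
Myf5: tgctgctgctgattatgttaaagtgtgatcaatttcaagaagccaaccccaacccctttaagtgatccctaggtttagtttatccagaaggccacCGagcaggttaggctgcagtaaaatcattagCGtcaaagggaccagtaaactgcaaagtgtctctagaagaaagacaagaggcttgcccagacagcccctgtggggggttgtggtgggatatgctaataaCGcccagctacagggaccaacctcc
Ascl3: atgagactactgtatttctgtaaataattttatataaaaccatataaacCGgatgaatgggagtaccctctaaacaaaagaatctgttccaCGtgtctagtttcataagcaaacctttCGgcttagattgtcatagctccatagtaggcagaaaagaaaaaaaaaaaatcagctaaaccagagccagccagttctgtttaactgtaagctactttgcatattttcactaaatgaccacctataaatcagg
Neurog2 held 8 CpG, Tal1 6, Hey2 22 and Id4 35, while Atoh8 held 16, Hes6 12, Myf5 3 and Ascl3 3. Tal1 and Hes6 each had another RefSeq entry, with 16 and 17 CpG, and the entry closest to the outer start was printed. Over 32851 promoters of the same table the median was 6 CpG, with quartiles of 2 and 16, and 92.1% held at least 1. Regions of AAV-Cre covered all 250 bases of Neurog2 and Tal1, 24 of Hey2 and 0 of Id4. The RefSeq start lay 1 bp from the GENCODE start for Neurog2, 18 bp for Hey2, 112 bp for Id4 and 6 bp for Ascl3. Genes without an entry were Olig1, Bhlhe22, Myod1, Myf6, Tcf15, Hand1, Hes1, Hes2, Hes3, Hey1, Heyl and Id1.

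To see how far the mark reached these genes, members were counted in each list beside all protein-coding genes. Within 1 kb, 31 of 45 members were marked in AAV-Cre (68.9%, 95% Wilson interval 54.3 to 80.5, counting over genes only), compared to 23.9% of all protein-coding genes. In AAV-GFP 28 were marked (62.2%, interval 47.6 to 74.9), compared to 16.6%. Within 15 kb the counts were 37 in AAV-Cre, where 41.5% of all genes were marked, and 35 in AAV-GFP, where 27.9% were. Regions lay over the gene body of 32 members in AAV-Cre against 28.8% of all genes, and of 30 members in AAV-GFP against 20.7%. A start site itself was inside a region in 25 members in AAV-Cre, compared to 19.5% of all genes, and in 21 in AAV-GFP, compared to 11.0%. At each of these distances the share of members was above that of all genes in both lists.

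Coverage of the window within 5 kb of the start sites was then measured in base pairs. The median member had 5313 bp covered in AAV-Cre and 1571 bp in AAV-GFP, while the median over all genes was 0 in both lists. At least 50% of this window was covered in 24 members in AAV-Cre, compared to 7.09% of all genes. In AAV-GFP this held for 7 members, compared to 1.40% of all genes, and these 7 were Neurog2, Neurod2, Olig2, Bhlhe22, Twist1, Tal1 and Hey2. All 33 members with any coverage in this window had more in AAV-Cre, as did 97.7% of all genes with any, so the direction was that of the lists as a whole.

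**Figure D1:**
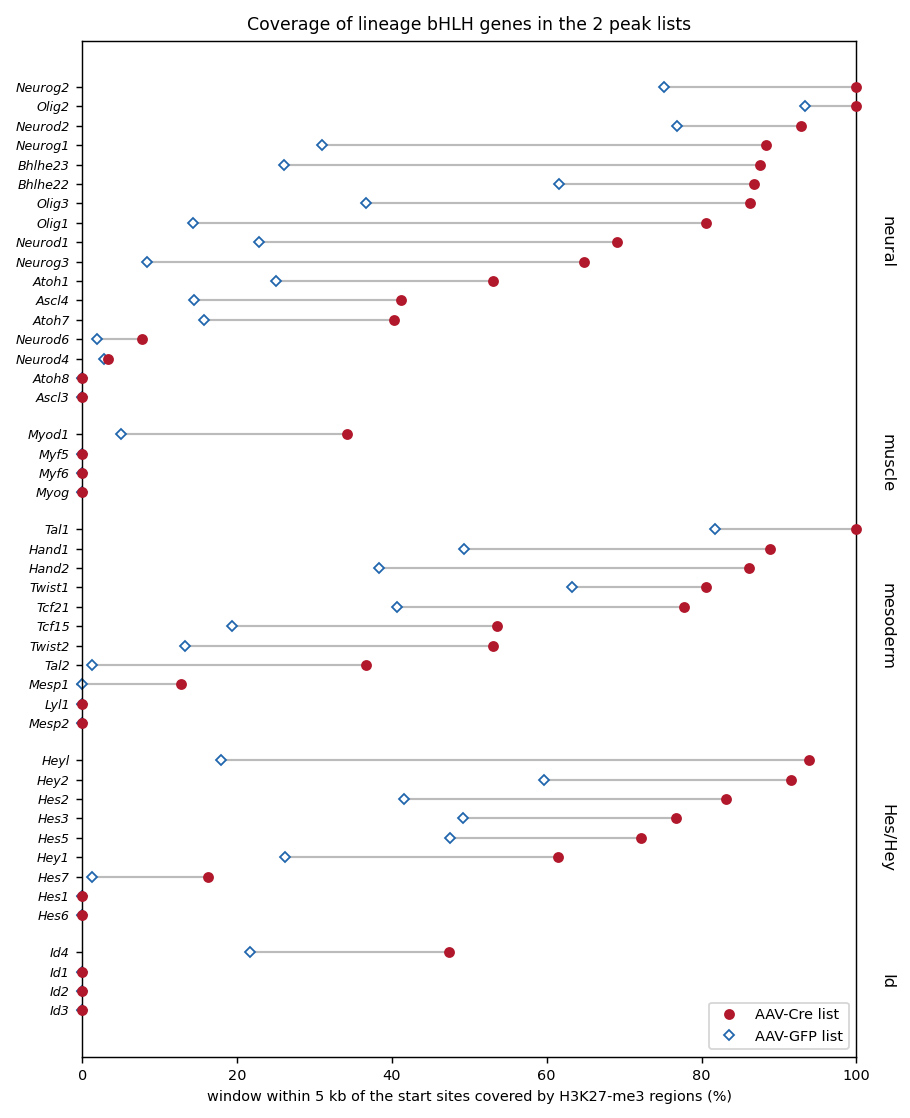
Share (%) of the window within 5 kb of the start sites covered by H3K27-me3 regions, for each of the 45 members, with filled circles for the AAV-Cre list and open diamonds for the AAV-GFP list. Neurog2, Olig2 and Tal1 reach 100% in AAV-Cre, while 3 of 4 muscle and 3 of 4 Id genes sit at 0 in both lists.

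The neural group holds mainly proneural and neuronal differentiation factors, and the oligodendrocyte factors Olig1 and Olig2. It also holds genes given other roles below, such as Neurog3, Atoh8 and Ascl3, so its counts are not of neural factors alone. Of its 17 genes, 14 were marked within 1 kb in AAV-Cre and 13 in AAV-GFP, with a median covered length of 6906 and 2282 bp. The mesoderm group, with factors of mesenchyme, heart, blood and somites, had 8 of 11 marked in each list and medians of 5356 and 1931 bp. The Hes/Hey group had 7 of 9 marked in each list and medians of 7223 and 2618 bp. The 3 groups thus had like shares of marked genes, above the 23.9% of all genes in AAV-Cre and the 16.6% in AAV-GFP.

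The muscle and Id groups stood lower on both counts, although each has only 4 genes. Of the muscle genes 1 was marked in AAV-Cre and 0 in AAV-GFP, and of the Id genes 1 and 0, beside 23.9% and 16.6% of all genes. A share of 25.0% in AAV-Cre is thus near that of all genes. The median covered length was 0 bp in both groups and both lists. In AAV-Cre the Wilson interval of 1 in 4 runs from 4.56 to 69.9% and overlaps that of the neural group (59.0 to 93.8%). In AAV-GFP the interval of 0 in 4 reaches up to 49.0% and that of the neural group runs from 52.7 to 90.4%. These intervals count over genes of chosen groups and are not a test between groups. The AAV-GFP counts also depend on the settings, since Myod1 and Id4 had regions just outside the window, at 1233 and 1156 bp. At a q-value of 0.05 or lower 11 of the 17 neural genes were marked in AAV-GFP. The combined Hes, Hey and Id genes had 8 of 13 marked in AAV-Cre and 7 in AAV-GFP. Within 15 kb, the Id group had 3 of 4 genes marked in each list and the muscle group 2 of 4, beside 41.5% of all genes in AAV-Cre and 27.9% in AAV-GFP.

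Coverage changed with distance from the start. In AAV-Cre 55.6% of the members were covered at the start itself, 66.7% at 1 kb downstream and 51.1% at 1 kb upstream, falling to 40.0% and 31.1% at 5 kb. In AAV-GFP the values were 46.7% at the start, 40.0% and 28.9% at 1 kb, and 20.0% and 11.1% at 5 kb. More of the 5 kb downstream than upstream was covered in 22 members in AAV-Cre, while 8 had more upstream and 15 had equal lengths. The AAV-GFP counts were 24, 8 and 13. Neither the profile nor these counts were computed over all protein-coding genes, so whether the downstream excess is particular to the members was not tested.

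**Figure D2:**
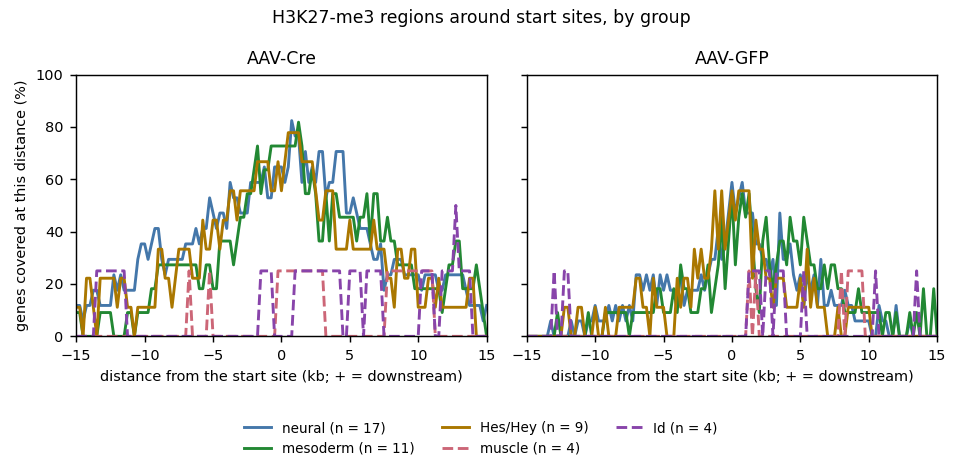
Percentage of the genes of each group that are covered by a region at each distance from the start site (kb, downstream positive), in the AAV-Cre list (left) and the AAV-GFP list (right). The neural, mesoderm and Hes/Hey curves peak at 82.4, 81.8 and 77.8% just downstream of the start in AAV-Cre, and the muscle and Id curves, of 4 genes each, do not form a peak there.

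Among neural genes the widest region lay over Olig2, a determinant of motor neurons and oligodendrocytes (ENSMUSG00000039830.9, chr16:91225457-91228677). In AAV-Cre a single region of 19868 bp ran from 9759 bp upstream to 10108 bp downstream of its start, with a fold of 8.03 over input and a q-value of 2.29e-51. It ranked 34th in width among all 59267 regions, and 9 AAV-GFP regions covering 73.6% of it lay inside. Olig2 also had the highest share of its 15 kb window covered in AAV-Cre (88.0%), with 51.6% in AAV-GFP.

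Olig1, its neighbor on the same strand, starts 44315 bp further downstream. Of the stretch between both starts 64.4% was covered in AAV-Cre and 19.5% in AAV-GFP. Regions flanked the Olig1 start in AAV-Cre at 1221 bp upstream and 471 bp downstream, and none lay over it. In AAV-GFP the nearest region to Olig1 was 331 bp wide at 533 bp, with a q-value of 0.189.

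Neurog2, a proneural factor of sensory and cortical neurons, had an AAV-Cre region of 16162 bp over its start, from 10731 bp upstream to 5430 bp downstream (fold 7.58 over input). Inside were 15 AAV-GFP regions over 66.9% of its length. Neurod2, which acts in neuronal differentiation, had an AAV-Cre region of 16142 bp, with 12 AAV-GFP regions over 75.8% of it. Neurod2 had the highest share of a 15 kb window in AAV-GFP (57.3%), where AAV-Cre covered 86.4%. At each of these 3 genes a single AAV-Cre region thus spanned a series of shorter AAV-GFP regions.

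Neurog3, which specifies endocrine cells of the pancreas, had 64.8% of its 5 kb window covered in AAV-Cre and 8.33% in AAV-GFP. Its AAV-Cre region was 2291 bp wide, covered the start and reached an exon of the neighboring gene Fam241b (q-value 1.12e-09), and its AAV-GFP region was 327 bp wide (q-value 0.00685). Both lists marked Neurog3, but the covered length differed more than for Olig2, with 6482 against 833 bp.

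Of the 17 neural genes, 4 lacked a region within 1 kb in at least 1 list. Ascl4 had an AAV-Cre region at 687 bp, and the nearest AAV-GFP region lay at 1016 bp, just outside the window. Neurod6, a factor of cortical neurons, had its nearest regions at 3844 bp in AAV-Cre and 4216 bp in AAV-GFP, the latter with a q-value of 0.182. Atoh8 and Ascl3 had no region within 15 kb in either list. Atoh8, which is known to act on hepcidin expression in hepatocytes, had its nearest AAV-Cre region at 43673 bp. For Ascl3, a factor of salivary duct cells, the nearest AAV-Cre region lay at 46107 bp, over the start of the neighboring gene Nrip3. Neurod4 was marked by weak regions only, of 330 bp in AAV-Cre (q-value 0.0573) and 127 bp in AAV-GFP (q-value 0.182).

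Myod1, the founding myogenic determination factor, was the muscle gene with a region within 1 kb (ENSMUSG00000009471.4, chr7:46376474-46379099). Its AAV-Cre region of 3421 bp ran from 409 bp upstream to 3011 bp downstream and covered 100% of the gene, with a fold of 4.08 over input and a q-value of 7.9e-08. In AAV-GFP the nearest region was 133 bp wide at 1233 bp downstream, and 19.2% of the gene was covered. The other muscle genes had no region within 5 kb in either list.

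Myf5 and Myf6, muscle determination factors whose starts lie 8603 bp apart, had the farthest regions of any member in AAV-Cre. The nearest AAV-Cre region lay 259071 bp from Myf5 and 250468 bp from Myf6, and is the same region for both. Myog, which drives the terminal step of muscle differentiation, had AAV-Cre regions from 5122 bp away. The region of highest significance near Myog, 3372 bp wide in AAV-Cre and 1275 bp in AAV-GFP, lay over an exon of the neighboring gene Ppfia4.

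In the mesoderm group Tal1, a regulator of blood and endothelial progenitors, had the widest region (ENSMUSG00000028717.12, chr4:115056426-115071755). The AAV-Cre region measured 19764 bp, from 9017 bp upstream to 10746 bp downstream of the outer start, with a fold of 9.6 over input. It contained 10 AAV-GFP regions over 56.4% of its length. Hand1 and Hand2, factors of heart and limb, had 9480 and 8609 bp of their 5 kb windows covered in AAV-Cre, and 5261 and 3826 bp in AAV-GFP. Hand2 had 27 AAV-GFP regions within 15 kb, where AAV-Cre had 7. Twist1, a mesenchymal factor, had an AAV-Cre region of 5108 bp with a fold of 12.1 over input and a q-value of 5.15e-60, and 4 AAV-GFP regions over 85.6% of it.

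Lyl1, Mesp1 and Mesp2 lacked a region within 1 kb in both lists. Lyl1, the close paralog of Tal1 in blood cells, had its nearest region at 78494 bp in AAV-Cre and 84384 bp in AAV-GFP. In contrast, 100% of the 5 kb window of Tal1 was covered in AAV-Cre and 81.8% in AAV-GFP. Mesp1, a factor of early cardiac mesoderm, had an AAV-Cre region of 1272 bp at 1148 bp with a q-value of 0.00056, while the nearest AAV-GFP region lay 70338 bp away. Mesp2, which acts in somite segmentation and starts 16939 bp from Mesp1, had that same AAV-Cre region as its nearest, at 18087 bp. Tal2 was marked in AAV-GFP by 1 region of 123 bp with a q-value of 0.228, and in AAV-Cre by a region of 2224 bp.

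**Figure D3:**
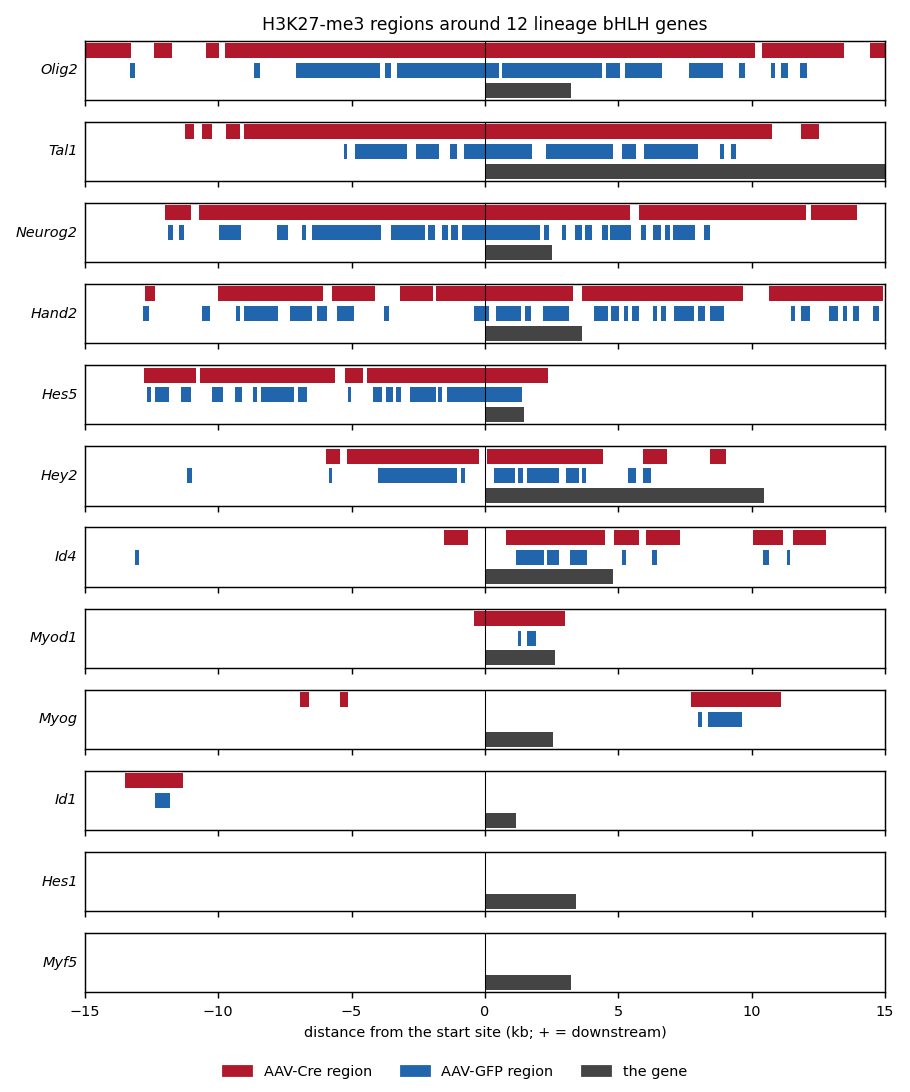
Regions of H3K27-me3 within 15 kb of the start site of 12 members (kb, downstream positive, vertical line at the start), with AAV-Cre regions in the upper row, AAV-GFP regions in the middle row and the gene in the lower row of each panel. Long AAV-Cre regions span series of AAV-GFP regions at Olig2, Tal1 and Neurog2, both lists leave the start of Hey2 and Id4 uncovered, and Hes1 and Myf5 have no region.

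The Hes/Hey genes were marked with 2 exceptions, Hes1 and Hes6. Hes1, the most widely used Notch effector, had its nearest region at 30322 bp in AAV-Cre and 237491 bp in AAV-GFP. Hes6, an atypical member that opposes Hes1, had an AAV-Cre region of 484 bp at 6916 bp (q-value 0.00473), and none within 15 kb in AAV-GFP. Hes3, Heyl and Hey2 had the longest coverage in base pairs, with 10020, 9393 and 9152 bp in AAV-Cre and 6428, 1792 and 5956 bp in AAV-GFP. Hes3 has 2 start sites and thus a longer window, and as a share of the window its 76.7% in AAV-Cre lay below Heyl (93.9%), Hey2 (91.5%) and Hes2 (83.2%). The AAV-Cre region over Hes3 measured 8557 bp, with a fold of 13.3 over input and a q-value of 1.97e-62. Hes7, an oscillator of the segmentation clock, was marked in AAV-GFP by 1 region of 125 bp with a q-value of 0.129.

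At Hey1 and Hey2, which act in vessels and heart, regions flanked the start and left it uncovered in both lists. The AAV-Cre regions lay 209 bp upstream and 73 bp downstream of Hey2, and 954 bp upstream and 272 bp downstream of Hey1. The nearest AAV-GFP regions were 348 bp from the start of Hey2 and 504 bp from that of Hey1. In the Hey2 sequence above, 24 of 250 bases fell in a region. In AAV-Cre 6 members were marked within 1 kb but not over a start site, namely Neurod4, Ascl4, Olig1, Hey1, Hey2 and Id4. Of the 31 members marked within 1 kb, 25 had a region over a start site. Of all 5242 genes marked within 1 kb, 4282 did, so uncovered starts were not particular to the members.

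Id4, which acts in neural and mammary progenitors, was the Id gene with a region within 1 kb in AAV-Cre, at 653 bp upstream (q-value 0.0086), and a stronger region of 3693 bp began 794 bp downstream (q-value 2.65e-35). The nearest AAV-GFP region of Id4 lay at 1156 bp and was 1050 bp wide. Id1, Id2 and Id3, targets of BMP signaling, had no region within 5 kb in either list. The nearest region lay 11328 bp from Id1 in AAV-Cre and 11812 bp in AAV-GFP, and 11679 and 12325 bp from Id2. For Id3 the distances were 60921 and 61237 bp. In all 3 genes both lists thus placed the nearest region at a similar distance.

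To ask which members differed between the lists, those marked in 1 list were counted. Within 1 kb 3 members were marked only in AAV-Cre (Ascl4, Myod1 and Id4), or 6.67% of the 45, compared to 7.62% of all genes. None was marked only in AAV-GFP (0 of 45, compared to 0.287% of all genes). Within 15 kb 2 members were marked only in AAV-Cre (Mesp1 and Hes6), or 4.44%, compared to 14.8% of all genes, and 0 only in AAV-GFP, compared to 1.22%. At 1 kb this share of members was close to that of all genes, and at 15 kb it lay below it, but the counts moved with the regions kept. Only genes unmarked in AAV-GFP can enter this count, and fewer of the members than of all genes were unmarked there. Within 15 kb it was 2 of 10 unmarked members and 3250 of 15808 unmarked genes. Within 1 kb it was 3 of 17 and 1672 of 18305. The shares over all 45 members thus depend on how many were already marked in AAV-GFP. Ascl4, Myod1 and Id4 had AAV-GFP regions at 1016, 1233 and 1156 bp, so that their calls rest on the edge of the 1 kb window.

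Where only regions with a q-value of 0.05 or lower were kept, 6 members were marked only in AAV-Cre within 1 kb, as Hes7, Olig1 and Tal2 lost their AAV-GFP call, which is 13.3% of members and compares to 9.64% of all genes. Within 15 kb the count was 5 at this q-value (11.1%, compared to 19.3% of all genes), 6 at 0.01 (13.3%, compared to 19.3%) and 7 with a minimum width of 300 bp (15.6%, compared to 21.6%). With the same number of regions per list it was 1 (2.22%, compared to 9.90%), and Neurod4 was marked only in AAV-GFP. These shares are over all members or all genes, so they too depend on how many were already marked in AAV-GFP. Of the 278 AAV-GFP regions within 15 kb of the members 61.2% passed a q-value of 0.05, against 46.8% of the whole list. Of the 181 AAV-Cre regions 91.7% passed it, against 88.6%.

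Within 15 kb of the members, AAV-Cre regions covered 402696 bp and AAV-GFP regions 167668 bp, a ratio of 2.4. The ratio was 3.6 around all protein-coding genes and 4.93 over the whole lists. Of the bases in AAV-GFP regions near members 98.1% were also in AAV-Cre regions, and 40.9% of the AAV-Cre bases were in AAV-GFP regions (96.6% and 26.9% around all genes). By group the ratio was 2.46 for neural, 2.18 for mesoderm, 2.39 for Hes/Hey, 3.36 for Id and 3.87 for muscle genes. The median width of regions was 1158 bp in AAV-Cre and 322.5 bp in AAV-GFP, beside 753 and 231 bp over the whole lists. Near members 19 regions of AAV-Cre and 0 of AAV-GFP were 5 kb or wider. Wide regions were also rarer in the whole AAV-GFP list. A width of 5108 bp ranked 1521 among the 59267 AAV-Cre regions, while 4070 bp already ranked 119 among the 34586 AAV-GFP regions.

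Base composition at the start also differed among the members. Observed over expected CpG was taken in 1001 bases around the outer start of each gene. The median of all 45 members was 0.551, like the 0.552 of all protein-coding genes. It was 0.649 for the 31 members marked within 1 kb in AAV-Cre and 0.455 for the 14 others, beside 0.563 and 0.545 over all genes. In the Hes/Hey group the direction was opposite, with 0.537 for the 7 marked genes and 0.723 for Hes1 and Hes6. Start sites were called CpG-rich at a GC content of at least 55% and a ratio of at least 0.6, limits that were chosen after the marks were known. Of 17 CpG-rich members 14 were marked in AAV-Cre (82.4%), and of 28 CpG-poor members 17 were (60.7%). Over all genes the AAV-Cre shares were 24.9% and 23.3%. In AAV-GFP 76.5% of CpG-rich and 53.6% of CpG-poor members were marked, and 20.6% and 14.1% of all genes.

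The CpG-rich members without a region within 1 kb in AAV-Cre were Atoh8, Hes1 and Hes6. Conversely, Hes3 (ratio 0.305) and Hand1 (0.339) were CpG-poor and had 10020 and 9480 bp covered. Across the 45 members Spearman's rho between the ratio and the covered length reached 0.34 for AAV-Cre and 0.365 for AAV-GFP, given as a description over genes of the same lists. Over all genes rho was 0.0555 and 0.0959. In the 250 bases before the start, the 22 marked members with a RefSeq entry held a median of 13.5 CpG (2 to 35) and the 11 others 7 (2 to 18), so that the ranges overlapped.

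**Figure D4:**
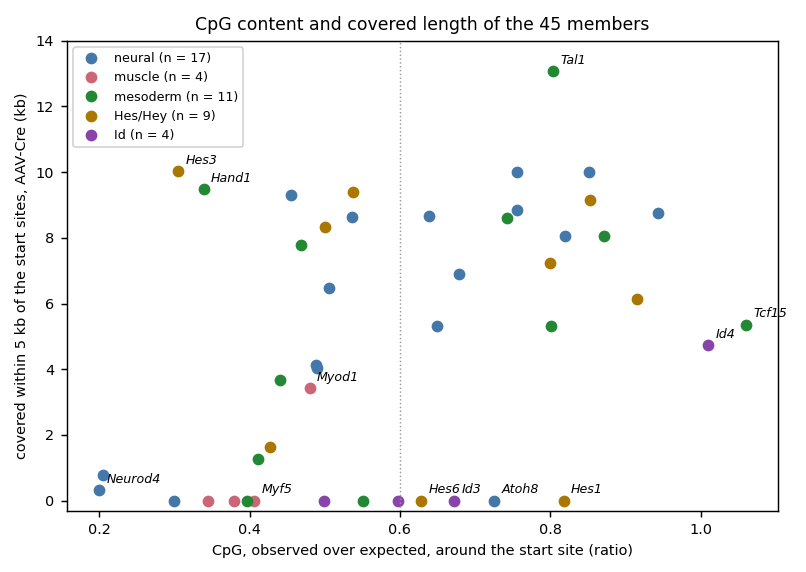
Length covered within 5 kb of the start sites in AAV-Cre (kb) against observed over expected CpG around the outer start (ratio, dotted line at 0.6), with 1 point per member colored by group. Tcf15 and Id4 have the highest ratios, Hes1, Atoh8, Hes6 and Id3 sit at 0 kb right of the line, and Hes3 and Hand1 are long and left of it.

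Other bHLH genes were counted in the same way. Of 32 other tissue-restricted bHLH genes, 24 were marked within 1 kb in AAV-Cre (75.0%) and 23 in AAV-GFP (71.9%), compared to 23.9% and 16.6% of all genes. The members had 68.9% and 62.2%, so a high share of marked genes was not particular to the 45. The median covered length of these other genes was 5970.5 and 2212 bp. Helt was marked only in AAV-Cre within 1 kb (3.12%, compared to 7.62% of all genes), and Tcf23 and Sohlh1 within 15 kb (6.25%, compared to 14.8%). Of 31 broadly expressed bHLH genes, which include the E proteins, 0 were marked within 1 kb in either list. Within 15 kb 9 of these were marked in AAV-Cre (29.0%, compared to 41.5% of all genes). In AAV-GFP 3 were (9.68%, compared to 27.9%), namely Max, Mlxip and Arnt. The broadly expressed genes had a median CpG ratio of 0.824, above the 0.551 of the members and the 0.552 of all genes, although none was marked within 1 kb.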

How the data were processed

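The authors processed H3K27-me3 ChIP-seq reads of liver chromatin with the AQUAS histone pipeline and a pooled input. Per the labels, BWA 0.7.13, SAMtools 1.2, Picard 1.126 and mm10 were used, and each deposited list was made from both replicates. The deposited lists give a fold over input (a ratio) and the −log10 of a p-value and of a q-value, as computed by the authors' peak caller. Folds were not compared between lists. Broad domains called as narrow peaks are split into several regions. The lists hold no read counts, so depth is unknown, and intervals cover counting over genes only.

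Regions were set against GENCODE M21 start sites of basic protein-coding transcripts on GRCm38, the assembly of mm10, counting an overlap of 1 bp. All peaks were on 21 chromosomes and 0 ran beyond a chromosome end. Python 3.11.15, numpy 2.4.6, scipy 1.17.1 and pysam 0.24.0 were used, and interval functions were tested on simulated data. With 1 list per group, the groups were not tested against each other. Members, groups and gene lists were chosen with earlier results of these data known, and the printed sequences and the limits of the CpG classes after the marks were seen.

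Genes are named where a region within 1 kb is missing in either list, where covered length within 5 kb in AAV-Cre is among the 3 longest or is the shortest of a group, where start sites of members lie within 50 kb, where the 15 kb share is extreme, and for 11 textbook representatives. Other genes, such as Neurod4, Hes7, Tal2, Bhlhe22 and Tcf15, were named after their values were seen. The symbol Tf was not matched, which left 19 of 20 hepatocyte markers. Alternatives were q-values of 0.05 and 0.01, a minimum width of 300 bp, equal numbers of top peaks, other start sites and other windows.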

Additional observations from a re-analysis of the deposited data

How the results depend on the processing

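Of 140 recomputed values for 22 results under 10 settings, 125 stayed within 1.5 times the reported value and 15 moved beyond it. Counts of members marked within 1 kb, within 15 kb and over gene bodies in each list, and of marked members in each group, were among those that stayed. The number marked only in AAV-Cre within 1 kb (3) was 6 at a q-value of 0.05 or lower, 6 at 0.01, 6 with a minimum width of 300 bp, and 1 with a window of 5 kb. The number within 15 kb (2) was 5 at a q-value of 0.05, 6 at 0.01, 7 with a minimum width of 300 bp, 1 with the same number of top peaks, 1 with a window of 5 kb and 4 with a window of 50 kb. With the same number of 34586 top peaks, 1 member (Neurod4) was marked only in AAV-GFP within 1 kb, and 1 within 15 kb. The median covered length in AAV-GFP was 901 bp at a q-value of 0.01 or lower. Measured within 1 kb, which is a shorter window, the medians were 1720 bp in AAV-Cre and 509 bp in AAV-GFP. Stricter thresholds removed more regions from the AAV-GFP list (16203 of 34586 kept at 0.05) than from the AAV-Cre list (52486 of 59267). No paired analysis was possible because each deposited list pools both replicates, and for the same reason leaving out a replicate could not be run. With 1 list per group, the virus and any difference in depth, library or mouse cannot be told apart.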

Other observations

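Several bHLH genes outside the 45 had broad coverage in both lists. Sim1 and Sim2, neural regulators of the PAS family of bHLH proteins, had 100% of their 5 kb windows covered in AAV-Cre, and 75.3% and 89.7% in AAV-GFP. Ebf2, of the Ebf family, had 100% and 85.2%, and Ebf1, which acts in B cells, 98.9% and 68.8%. By contrast Scx, a tendon factor, and Bhlha15, a factor of secretory cells, had no region within 50 kb in either list. These genes were chosen after their values were seen.

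Among broadly expressed bHLH genes, the nearest AAV-Cre region lay at 2442 bp for Mlxip, 1935 bp for Usf1, 3065 bp for Mxi1 and 4030 bp for Tfeb, and the nearest AAV-GFP regions at 13247, 30467, 17528 and 46073 bp. Max had its nearest region at 14789 bp in AAV-GFP and 44840 bp in AAV-Cre. These genes were chosen after their values were seen, and the first 4 were the only ones of the 31 with AAV-Cre coverage within 5 kb. Of the 31, 7 had regions within 15 kb only in AAV-Cre (22.6%, compared to 14.8% of all genes). Only in AAV-GFP it was 1 (3.23%, compared to 1.22%).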
